A study of Mus musculus with 8 samples.

Results

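Aass encodes α-aminoadipic semialdehyde synthase, a mitochondrial enzyme of lysine breakdown, and it was 1 of 18193 genes measured on arrays of mouse pre-iPSCs. It was chosen by its signal in the 3XHMT arrays against the control arrays, where it stood further above control than any other gene when H3K9 methyltransferases were targeted. The difference between those groups is therefore described below without a test. The annotation used gave Aass 1 probe set, 1423523_at, so no further probe set could check it.

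Pre-iPSCs are cells that entered reprogramming towards induced pluripotent stem cells and stopped short of the pluripotent state. The cells grew in the medium used for embryonic stem cells, and total RNA was taken after 3 days of siRNA treatment. The control group (n = 3) had siRNA to luciferase, the 3XHMT group (n = 2) had siRNA to Ehmt1, Ehmt2 and Setdb1 at once, and the Cbx3 group (n = 3) had siRNA to Cbx3, which encodes HP1gamma. Samples within a group carry the label biological replicate, but nothing says whether cultures or cell lines were separate, so p-values measure only the spread between these samples, which may be technical.

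The Aass protein joins a pair of activities in 1 chain. Its lysine-ketoglutarate reductase part condenses lysine with 2-oxoglutarate to saccharopine, and its saccharopine dehydrogenase part splits saccharopine into glutamate and α-aminoadipic semialdehyde. The pathway is known mainly from liver and kidney, and inherited loss of AASS in humans causes hyperlysinemia. Ehmt1 and Ehmt2 form the complex that places H3K9 mono- and dimethylation, Setdb1 places H3K9 trimethylation, and HP1gamma binds methylated H3K9.

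The stretch of DNA just upstream of the annotated Aass start is shown because the knockdowns target repressive chromatin. Its CG dinucleotides, the bases that DNA methylation uses, are in capitals together with the matches to CCAAT, read here as ATTGG on the opposite strand. It spans chr6:23132987-23133236 of GRCm38.p6 on the minus strand (RefSeq) and ends at the base before the start.

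Aass upstream 250 bases: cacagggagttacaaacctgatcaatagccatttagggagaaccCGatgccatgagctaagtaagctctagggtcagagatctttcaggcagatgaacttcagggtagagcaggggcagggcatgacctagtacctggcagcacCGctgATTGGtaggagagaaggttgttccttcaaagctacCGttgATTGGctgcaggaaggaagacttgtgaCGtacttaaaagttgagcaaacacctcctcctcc

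The stretch has 4 CG, against a median of 6 over 32851 RefSeq promoter stretches of the same length, of which 37.8% had fewer. The letters CCAAT occurred at 2 places, whose matches begin 101 and 61 bases before the start, and 33.9% of all stretches hold them on either strand. The letters TGACGT, the core of a cAMP response element, occurred once at 37 bases before the start, overlapping a CG, and are held by 6.47% of stretches. There were 0 matches on either strand to TATAAA, present in 12.4% of stretches, 0 to the E-box CACGTG, present in 6.02%, and 0 to the GC box GGGCGG, present in 32.7%.

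Aass signal was low in control cells and high in both 3XHMT arrays. In control it was 5.77, 4.98 and 5.64 on the log2 scale, near the array medians of 5.87 to 5.90. In 3XHMT it was 11.29 and 10.20. In Cbx3 it was 6.43, 5.69 and 6.26. Both 3XHMT arrays stood far above the other 6 arrays, while the ranges of control and Cbx3 overlapped, since Cbx3 2 lay below control 1.

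**Figure D1:**
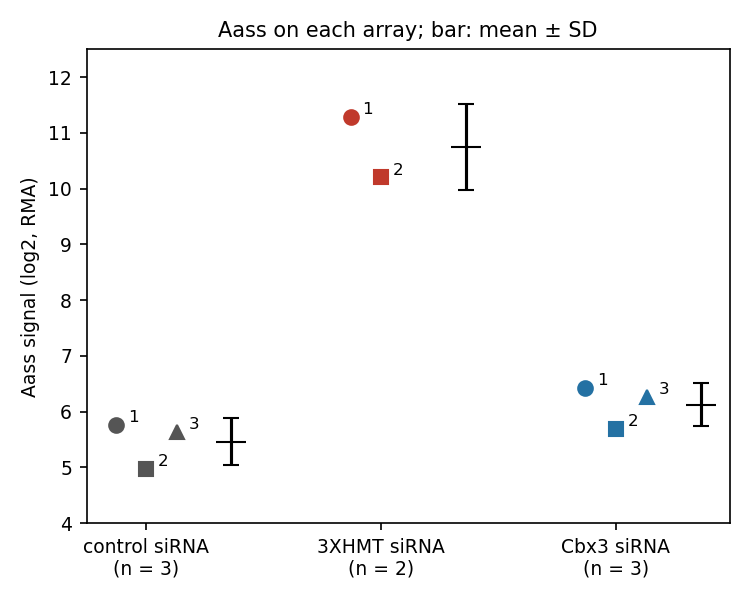
Aass signal (log2, RMA) on each array by siRNA group; numbers are replicate numbers, and bars are mean ± SD. The 3XHMT arrays lie at 11.29 and 10.20, and the control and Cbx3 arrays between 4.98 and 6.43.

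The means were 5.46 ± 0.42 (SD, n = 3) in control, 10.75 ± 0.77 (SD, n = 2) in 3XHMT and 6.13 ± 0.39 (SD, n = 3) in Cbx3. The 3XHMT mean lay 5.28 above control on the log2 scale, 39.0-fold. Taken pair by pair, the 6 combinations of a 3XHMT array with a control array differed by 21.6-fold to 79.5-fold. The lower 3XHMT array was 13.6-fold above the highest of the other 6 arrays.

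The arrays differ in a way the groups do not explain. They were divided into 3 sets by the middle probe set for 18S ribosomal RNA. The number of sets was fixed by the rule, which cut its signal at the widest gaps. Control 1 stood with Cbx3 1 (11.2 and 11.5), and control 2 with 3XHMT 1 and Cbx3 2 (12.6 to 12.8). Control 3 stood with 3XHMT 2 and Cbx3 3 (9.98 to 10.2). Within these sets Aass was 79.5-fold higher in 3XHMT 1 than in control 2 and 23.6-fold higher in 3XHMT 2 than in control 3. In control and in Cbx3 the array of the second set was the lowest of its group, with deviations from the group mean of -0.48 and -0.44. In 3XHMT the array of that set was the higher, with a deviation of 0.54.

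The 2 arrays of the 3XHMT group also differed in the signal of the targeted genes. Setdb1 was at 52.6% of control 2 in 3XHMT 1 and at 68.7% of control 3 in 3XHMT 2, Ehmt2 at 67.4% and 86.6%, and Ehmt1 at 72.3% and 78.2%. Against the mean of all 3 control arrays the order of Ehmt2 turned, with 74.2% in 3XHMT 1 and 60.1% in 3XHMT 2, while Setdb1 (53.6% and 74.5%) and Ehmt1 (68.6% and 92.3%) kept theirs. These values are from the brightest probe set of each gene. The dimmer Setdb1 probe sets differed from control in 3XHMT by -0.715 and -0.07 on the log2 scale, and the dimmer Ehmt2 probe set by -0.405. Aass was 2.13-fold higher in 3XHMT 1. With 2 arrays no relation between target and Aass levels can be tested. Over all 3 groups the residual SD of Aass was 0.50, larger than that of 94.9% of genes, whose median was 0.18. Over all genes the target differences did not pass in limma (adjusted p = 0.339 for Setdb1, 1.00 for Ehmt1 and Ehmt2), and with the 18S set as a block Setdb1 passed (0.0295).

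Aass had the largest difference of 18193 genes, and this order did not rest on 1 array. It ranked 1 by the group means, by 3XHMT 1 alone (56.8-fold) and by 3XHMT 2 alone (26.7-fold) against the control mean, and by each 3XHMT array against the control of its 18S set. It also ranked 1 by the gap between the lower 3XHMT array and the highest control array (21.6-fold), where the next gene was the defensin Defb1 at 6.38-fold. The ranks describe the choice of the gene and are no evidence beyond it. The nearest gene by the group means was Akr1c18, a hydroxysteroid dehydrogenase that inactivates progesterone, at 14.7-fold. After it came Zfp42 (8.54-fold), a marker of naive pluripotency, Scgb3a1 (7.16-fold) and the pluripotency factor Nanog (7.01-fold).

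**Figure D2:**
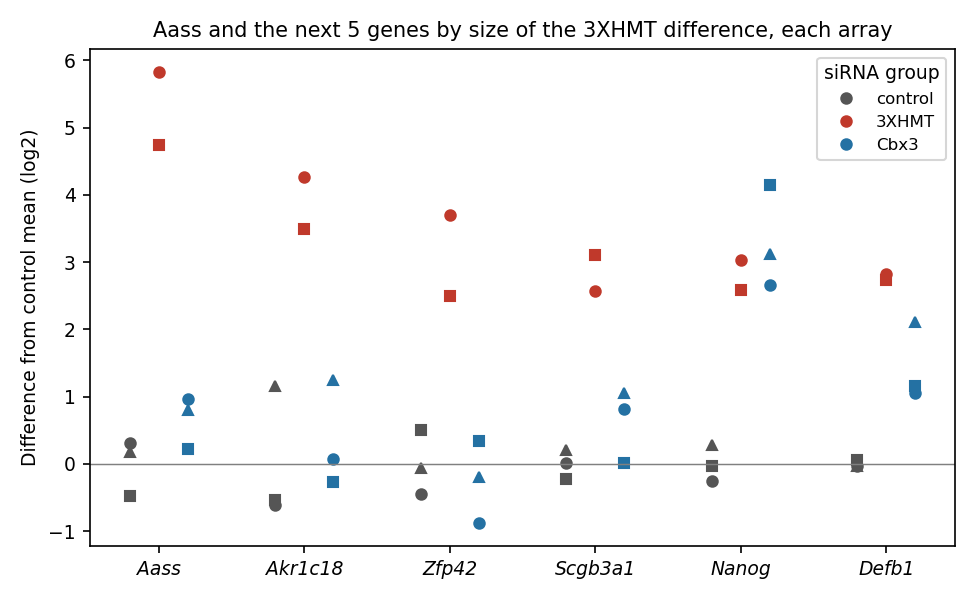
Difference from the control mean (log2) on each array for Aass and the 5 genes with the next largest 3XHMT differences; circles, squares and triangles are replicates 1, 2 and 3. Both 3XHMT arrays stand higher for Aass (4.74 and 5.83) than for any gene beside it, and Nanog alone is as high in the Cbx3 arrays.

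When the arrays were taken by replicate number, Aass was also higher after Cbx3 knockdown, by a far smaller amount. The brightest Cbx3 probe set, annotated also to a pseudogene, was at 42.8% of control in this group. The Aass difference was 0.66 between Cbx3 1 and control 1, 0.71 between Cbx3 2 and control 2 and 0.62 between Cbx3 3 and control 3. In each of the 3 pairs the Cbx3 array was higher, by 1.54-fold to 1.64-fold, and the SD of the 3 differences was 0.045, against a median of 0.16 over all genes.

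The outcome of the test turned on how the pairs were treated. In the limma fit of all 8 arrays without a block, the difference was 0.67 ± 0.33 (SE), 1.59-fold with a 95% interval of 0.943 to 2.68, and did not pass (adjusted p = 0.605). Replicate numbers pair the control and Cbx3 arrays, as given under the processing. With the number as a block in the 6 control and Cbx3 arrays, the limma difference was 0.67 ± 0.092 (SE), the interval 1.37 to 1.84-fold and the adjusted p 0.00447. That fit called 7.96% of all genes (0.445% without the block). With the 18S set as a block in all 8 arrays, where the wider spread of the 3XHMT arrays enters, it did not pass (limma adjusted p = 0.243).

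Aass was not among the foremost genes of the Cbx3 comparison. It ranked 309 of 18193 by the mean difference, and 142 genes had a larger difference in their weakest pair. The comparison shares its control arrays with the one on which Aass was chosen. An exact sign-flip test over 3 pairs cannot go below p = 0.25.

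The other enzymes of lysine breakdown differed from control by far less than Aass. The list held 16 measured genes besides Aass, from the semialdehyde down to acetyl-CoA and on the pipecolate and hydroxylysine branches. In 3XHMT against control 0 of 16 passed in limma (42 of 18193 genes, 0.231%, passed over the whole array), 0 had an unadjusted p under 0.05 (5.27% of all genes), and 8 were higher and 8 lower. A count of 0 is what the background share gives for a list of this size, so the sizes say more. Differences ran from -0.34 to 0.40 on the log2 scale with a median of 0.00946, against 0.00675 over all genes. The 95% intervals reached at most 1.98-fold higher, for Aadat, and 1.74-fold lower, for Crym.

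The enzymes that act directly after Aass are given with their values. Aldh7a1 (antiquitin), which oxidises the semialdehyde to aminoadipate, was 9.72, 9.92 and 9.33 in control and 9.87 and 9.66 in 3XHMT, a difference of 0.10 ± 0.19 (SE). Aadat, the aminotransferase that makes 2-oxoadipate, was 6.38, 6.17 and 6.80 in control and 6.63 and 7.07 in 3XHMT, a difference of 0.40 ± 0.26. The groups overlapped for both genes. Dhtkd1, the 2-oxoadipate dehydrogenase subunit, differed by 0.22 ± 0.23, and Gcdh, glutaryl-CoA dehydrogenase, by -0.11 ± 0.13. Pipox, which oxidises pipecolate on the parallel branch, differed by -0.08 ± 0.23.

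**Figure D3:**
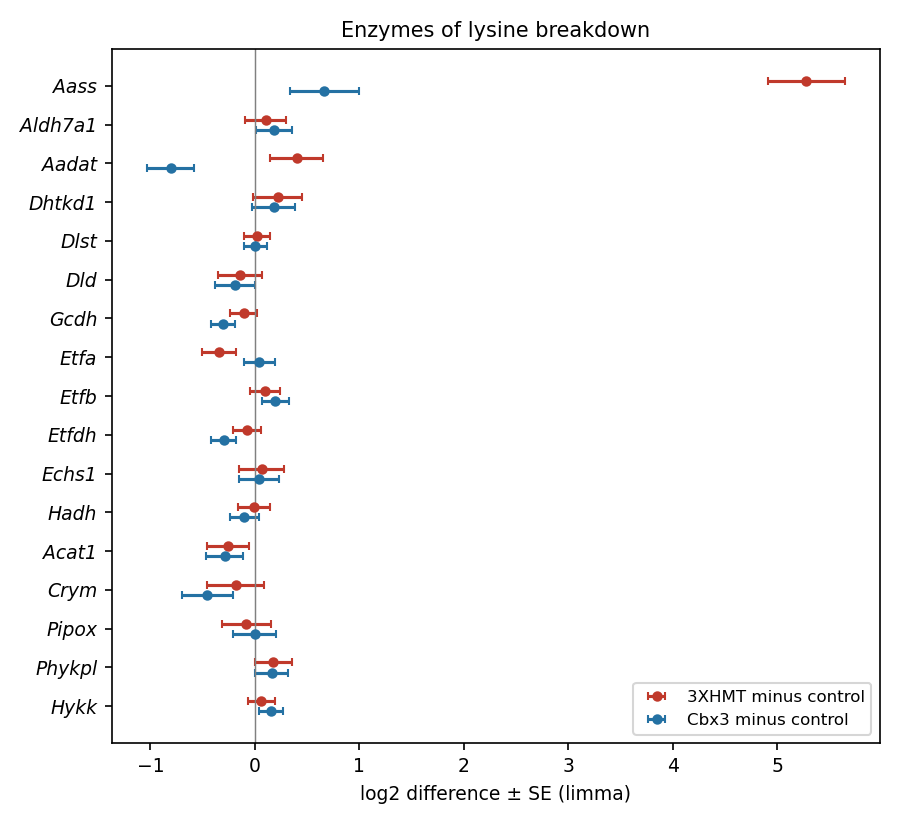
Differences from control (log2, limma estimate ± SE) for Aass and 16 other enzymes of lysine breakdown, in 3XHMT (red) and Cbx3 (blue). The other enzymes lie between -0.34 and 0.40 in 3XHMT, where Aass is at 5.28.

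After Cbx3 knockdown, too, 0 of the 16 passed in the unblocked limma fit (0.445% of all genes), with differences of -0.81 to 0.20 and a median of 0.00. An unadjusted p under 0.05 was reached by 0 higher and 3 lower members, where 4.77% and 4.79% of all genes reached it. The lower ones were Aadat, Gcdh and Etfdh. Aadat was 6.04, 5.37 and 5.53 in Cbx3, below every control array, -0.81 ± 0.23 against control (limma adjusted p = 0.229). Over all genes 14.3% did not overlap control in Cbx3. With the replicate number as a block Aadat fell (adjusted p = 0.0203), and it was the only 1 of the 16 called there, where 7.96% of all genes were. Gcdh (-0.30, limma adjusted p = 0.100) and Etfdh (-0.30, 0.114) did not pass. The second Etfdh probe set gave -0.08 without a block.

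Lysine transporters were counted next. Of 11 measured, 0 passed in either unblocked limma comparison (0.231% of all genes in 3XHMT and 0.445% in Cbx3). At an unadjusted p under 0.05, 1 in 3XHMT and 2 in Cbx3 were lower. Over all genes 5.27% reached that p in 3XHMT in either direction, and 4.79% were lower in Cbx3. In 3XHMT, Slc7a2, a cationic amino acid transporter, was 5.41 and 5.60 against 6.70, 6.32 and 7.17 in control. These arrays did not overlap, as at 16.4% of all genes. The difference was -1.23 ± 0.31 (limma adjusted p = 0.335, and 0.00962 with the 18S set as a block). Slc7a2 was the sole member called under that block, where 1.76% of all genes were, and its other 3 probe sets were dim and differed by -0.06 to -0.24. In Cbx3, Slc7a3, another cationic amino acid transporter, was 10.68, 9.48 and 10.10 against 11.91, 11.23 and 11.46, -1.45 ± 0.30 (limma adjusted p = 0.105; 0.000576 with the replicate number as a block). That block also called Slc7a1 lower (-0.67, adjusted p = 0.00846) and Slc7a7, the light chain of a dibasic amino acid exchanger, higher (0.61, 0.0443), so that 3 of 11 were called where 7.96% of all genes were.

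Connected pathways gave few calls. Of 5 carnitine synthesis genes, which start from trimethyllysine, 0 passed in either unblocked comparison, with medians of 0.05 in 3XHMT and -0.04 in Cbx3 and 1 lower member, Shmt2 in Cbx3, at an unadjusted p under 0.05. With the replicate number as a block Shmt2 was called lower (-0.38, limma adjusted p = 0.0451). Without a block its second probe set gave -0.18, and the mean of its probe sets -0.25. Of 7 kynurenine pathway genes, through which tryptophan reaches 2-oxoadipate, and 24 genes of other mitochondrial amino acid oxidation, 0 passed in either limma comparison. At an unadjusted p under 0.05 there were 1 lower and 1 higher member in 3XHMT, and 1 higher and 4 lower in Cbx3. Their medians were -0.08 and 0.04 in 3XHMT and -0.12 and -0.02 in Cbx3. With the replicate number as a block in limma, Ido1, which opens the kynurenine pathway, was called higher in Cbx3 (0.58, adjusted p = 0.0101), and Glud1, glutamate dehydrogenase (-0.48, 0.0198), and Aldh6a1 of valine breakdown (-0.45, 0.0271) were called lower. With Shmt2 these calls lie near the 7.96% of all genes that this block called, and the counts at an unadjusted p lie beside 5.27% of all genes in 3XHMT and 4.77% higher and 4.79% lower in Cbx3.

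The genes beside Aass on its chromosome did not pass the test as higher in 3XHMT. Of the 5 nearest measured protein-coding genes on each side, 0 of 10 passed in limma in either comparison (0.231% and 0.445% of all genes). At an unadjusted p under 0.05, 2 were lower in each comparison. Over all genes 5.27% reached that p in 3XHMT in either direction, and 4.79% were lower in Cbx3. With the 18S set as a block 2 fell in both, Ptprz1 and Cadps2, where 0.89% of all genes were called lower in 3XHMT and 3.5% in Cbx3. Ptprz1, a receptor tyrosine phosphatase and the direct neighbour on the side of lower coordinates, was 7.56, 8.42 and 8.80 in control, 5.95 and 6.40 in 3XHMT and 6.42, 6.96 and 7.18 in Cbx3. Neither knockdown overlapped control, as at 16.4% of all genes in 3XHMT and 14.3% in Cbx3.

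The Ptprz1 difference was -2.08 ± 0.36 in 3XHMT (limma adjusted p = 0.104; 0.000214 with the 18S set as a block) and -1.40 ± 0.32 in Cbx3 (0.136; 0.000532). Its second bright probe set gave -1.96 and -1.23. Cadps2, which acts in the release of dense-core vesicles, differed by -0.55 ± 0.14 in 3XHMT (limma adjusted p = 0.327; 0.0395 with that block) and -0.54 ± 0.12 in Cbx3 (0.127; 0.0148). Fezf1, the neighbour on the other side, differed by -0.12 in each comparison. Since the comparisons share the control arrays, their likeness is not a separate result. The remaining 7 neighbours differed by -0.23 to 0.27 in 3XHMT.

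**Figure D4:**
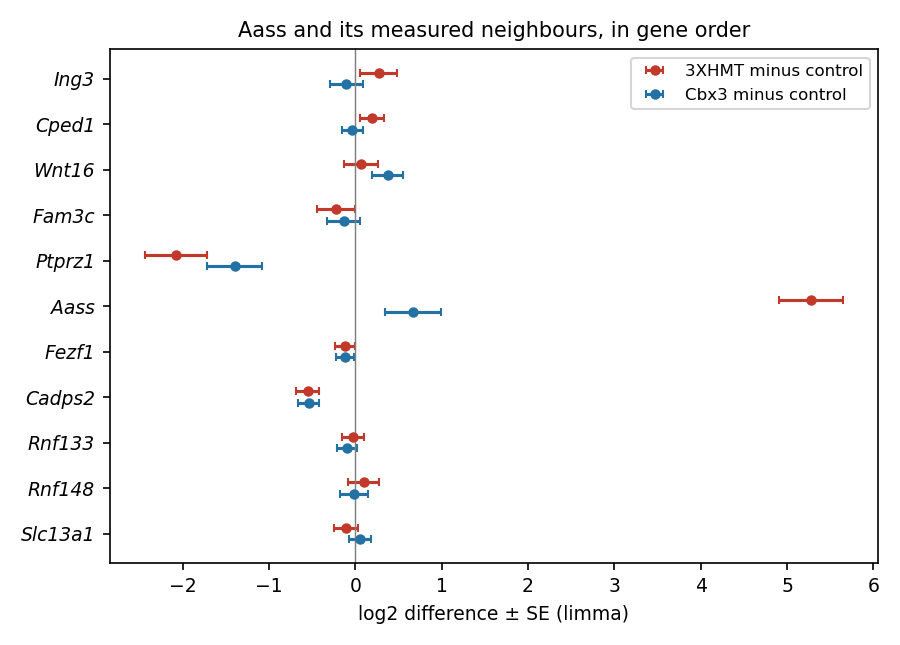
Differences from control (log2, limma estimate ± SE) for Aass and the 5 nearest measured protein-coding genes on each side, in chromosomal order, in 3XHMT (red) and Cbx3 (blue). Aass stands at 5.28 and its neighbour Ptprz1 at -2.08 in 3XHMT.

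Some genes had a profile over the 8 arrays close to that of Aass. Among 2899 genes that spanned at least 1 log2 unit, 8 had a Pearson r of at least 0.95 with Aass and 35 of at least 0.9. All 8 points share 3 groups, and any gene high in the 3XHMT arrays alone has a high r, so these values describe the arrays only. The closest was Pde1b, a cyclic nucleotide phosphodiesterase (r = 0.989). It differed from Aass in size, at 7.43 and 7.22 in 3XHMT and 6.30 to 6.32 in control, 2.02-fold.

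The others, unnamed models left out, were the sialyltransferase gene St6galnac3 (r = 0.973), the receptor gene Gpr37 (0.972), the glycosyltransferase gene Mgat4c (0.969), the pluripotency-associated Dppa4 (0.960), the protocadherins Pcdh17 (0.958) and Pcdhb22 (0.943), and the secretoglobin Scgb3a1 (0.952). Their 3XHMT differences were 0.85 to 2.84 on the log2 scale. Like Aass, Dppa4 was higher in 3XHMT 1 than in 3XHMT 2, at 8.61 and 7.55, whereas Scgb3a1 was lower there, at 9.25 and 9.79. Of the 12 genes closest to Aass by profile or by size of the difference, 9 had promoter stretches in RefSeq, and those held between 0 and 26 CG. Both ends of that range came from Pde1b, at different annotated starts.

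**Figure D5:**
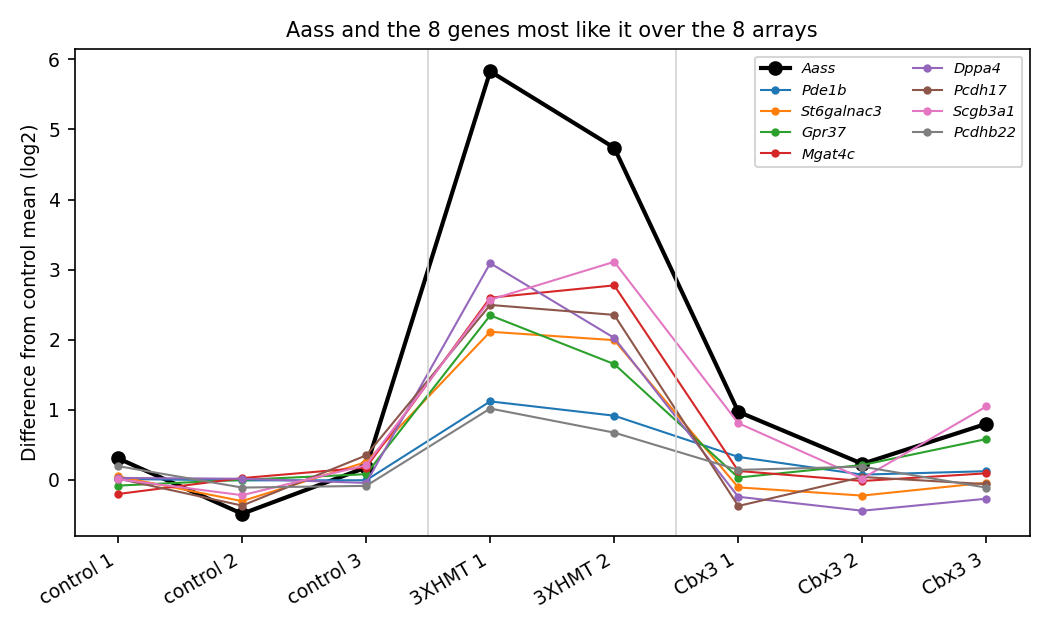
Difference from the control mean (log2) on each array for Aass (black) and the 8 named genes with the highest Pearson r to it; lines only join the values of 1 gene. All are high in the 3XHMT arrays, and Aass is highest, at 5.83 and 4.74.

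Markers of liver and kidney cells, from which the pathway is mainly known, and of visceral endoderm were measured beside Aass. Summed on the linear scale, 10 of 14 hepatocyte markers gave 450 to 513 in control, 475 to 525 in 3XHMT and 476 to 548 in Cbx3, overlapping ranges, and 0 passed in limma in either comparison or had an unadjusted p under 0.05. The 10 kidney markers gave 459 to 618, 876 to 1143 and 540 to 629. In 3XHMT 1 of them passed, where 0.231% of all genes did. It was the fatty acid acyl-CoA synthetase gene Slc27a2 (6.20-fold, limma adjusted p = 0.0135). The other 9 gave 396 to 514 in control and 389 to 485 in 3XHMT. Without 3XHMT 1 or 3XHMT 2 Slc27a2 did not pass (0.124 and 0.0511). Of the 10 kidney markers, 5 were higher and 5 lower in 3XHMT, and 0 passed in Cbx3. At an unadjusted p under 0.05, 1 was lower in each comparison, Slc22a6 in 3XHMT (-0.27) and Slc34a1 in Cbx3 (-0.29). That p was reached by 5.27% of all genes in 3XHMT in either direction, and by 4.79% as lower in Cbx3. Slc34a1 also lay below every control array in 3XHMT (-0.21), where the arrays of 16.4% of all genes did not overlap control. For 10 visceral endoderm markers the sums were 509 to 577, 520 to 583 and 540 to 565. Of these, 0 passed in limma or had an unadjusted p under 0.05.

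Markers of the cells themselves moved in part. Pou5f1, the pluripotency factor Oct4, was 12.59 to 13.23 in control, while Nanog was at 5.13 ± 0.27 (SD, n = 3) there. The 10 pluripotency markers summed to 13184 to 16198 in control, 18307 to 20369 in 3XHMT and 11592 to 13471 in Cbx3. Bright members weigh most in such a sum. Among these, Pou5f1 differed by 0.05 in 3XHMT and Dppa5a by 1.59 (limma adjusted p = 0.636). The median difference of the 10 in 3XHMT was 0.20. Nanog, Zfp42 and Dppa4 passed in limma as higher in 3XHMT, where 0.231% of all genes passed, and Nanog in Cbx3, where 0.445% did. The Zfp42 call was lost without any 1 array (adjusted p = 0.0695 to 0.323), the Nanog call in 3XHMT without any control or 3XHMT array or Cbx3 3 (0.067 to 0.323), and the Dppa4 call and the Nanog call in Cbx3 without control 1 or control 2 (0.0615 to 0.0746). With the 18S set as a block Dppa5a also passed as higher in 3XHMT (1.16, limma adjusted p = 0.0455), where 1.76% of all genes passed. In Cbx3 the replicate block, which called 7.96% of all genes, also called Esrrb higher (0.44, limma adjusted p = 0.0305). It called Fgf4 (-0.71, 0.0111) and Tdgf1 (-0.52, 0.0494) lower. The 18S set as a block called Fgf4 lower in Cbx3 (limma adjusted p = 0.0102), where 3.5% of all genes were called lower. The 9 fibroblast markers summed to 342 to 406, 412 to 521 and 398 to 480, and the 7 macrophage and blood markers to 353 to 484, 398 to 417 and 351 to 587, with 0 passing in limma. At an unadjusted p under 0.05 there were 1 higher and 2 lower fibroblast members in 3XHMT (5.27% of all genes) and 1 higher in Cbx3 (4.77%), and 0 and 1 higher of the blood list. The higher fibroblast member in 3XHMT was Dcn, which encodes the matrix proteoglycan decorin, at 2.02-fold (limma adjusted p = 0.189). Dcn passed with the 18S set as a block (limma adjusted p = 0.047), where 1.76% of all genes did. The lower ones were Twist1 (-0.73, limma adjusted p = 0.708) and Postn (-0.29, 0.866), and neither passed with that block. Of the 9, 4 did not overlap control in 3XHMT, where 16.4% of all genes did not. Dcn and Col1a1 were higher, and Twist1 and Postn lower. The part of these shifts in the Aass values was not tested, and in bulk RNA more cells with Aass and more Aass per cell cannot be told apart.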

How the data were processed

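The deposited log2 values cover 45101 probe sets on 8 arrays. The submitters' processing notes name RMA as the authors' method. RMA equalises array distributions, so a shift shared by most genes is removed, and dim signal compresses fold changes. Its version is not given in the sources used here. The number of arrays limits the precision.

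Probe sets with 1 symbol in the platform annotation (34945, against 932 with several and 9160 with none) were reduced to the brightest per gene, giving 18193 genes. A model of group means over all 8 arrays (5 residual degrees of freedom) was run with lmFit and eBayes of limma 3.58.1, two-sided, under R 4.3.3. A gene passed at a Benjamini-Hochberg adjusted p under 0.05 over all genes. The fit was tested on simulated data.

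Aass, the 11 gene lists (129 entries, 119 measured) and the tests were chosen with earlier results of these data known. Named were the siRNA targets, list members (values where the unadjusted p was under 0.05, for direct successors of Aass, and, chosen after its values were seen, Pipox), 5 neighbours on each side in the RefSeq gene table (GRCm38.p6), the next 5 genes by size and the 8 by r. Slc7a7 was also chosen after its values were seen.

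Replicate numbers, which the labels give, were checked as pairs: deviations from group means correlated by 0.570, 0.585 and 0.744 between same-numbered control and Cbx3 arrays, and by 0.11 and -0.56 between control and 3XHMT arrays. Numbers thus pair control with Cbx3 only. The 18S sets were known from an earlier analysis of these data.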

Additional observations from a re-analysis of the deposited data

How the results depend on the processing

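Under each alternative run Aass kept its direction in both comparisons. Its 3XHMT difference was 4.74 to 5.83 without 1 array and 5.28 to 5.44 otherwise, and it ranked 1 throughout, except with every probe set by itself, where it ranked 2. Its Cbx3 difference was 0.43 to 0.89 without 1 array (adjusted p = 0.471 to 0.929). It passed only with the replicate block (0.667), also without any 1 pair (0.668, 0.644 and 0.689 without replicates 1, 2 and 3, adjusted p = 0.0043 to 0.0349, chosen after seeing the data). The count of lysine breakdown members called was 0 in 3XHMT throughout, and 1 in Cbx3 with the replicate block and with the 18S set as a block, otherwise 0. Counts over all genes moved more. In 3XHMT 42 genes became 24 with second probe sets, 9 without dim genes, 10 with only the arrays compared, 97 with the replicate block, 320 with the 18S set as a block, 25 for single probe sets, and 3 to 22 without 1 array. In Cbx3 81 became 27 with only the arrays compared, 1448 with the replicate block, 1199 with the 18S set, 35 for single probe sets, and 2 to 34 without 1 array; the cause was not tested. Ptprz1 and Cadps2 passed in Cbx3 with either block, Ptprz1 in 3XHMT with either, and Cadps2 in 3XHMT with the 18S set only. For control and Cbx3 arrays the 18S sets and the replicate numbers give the same pairs, so the blocks are not separate checks. Replicate numbers do not pair 3XHMT with control, which limits every 3XHMT result with the replicate block. Signs turned for small differences that never passed: Setdb1 in Cbx3 (0.018 at its second probe set and without _a, _s and _x probe sets), Aldh7a1 in 3XHMT (-0.016 with the replicate block, -0.061 to 0.23 without 1 array), and, without 1 array, Dhtkd1 (-0.013 to 0.39 in 3XHMT, -0.048 to 0.32 in Cbx3) and the dim Cbx3 probe set in 3XHMT (-0.44 to 0.26). Besides the omissions of 1 array given in the report, the 3XHMT calls were lost with only the arrays compared for Zfp42, Dppa4 and Slc27a2 (adjusted p = 0.125, 0.0884 and 0.0838), with second probe sets and without dim genes for Zfp42 (0.0573 and 0.0763) and Nanog (0.051 and 0.0655), and with the mean of probe sets and cyclic loess for Zfp42 (0.0505 and 0.0585).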

Other observations

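Among single probe sets, 1 stood further above control in 3XHMT than Aass. This probe set, 1437867_at, has no gene name in the annotation used. It was 3.85, 3.61 and 4.61 in control and 9.69 and 9.25 in 3XHMT, 43.5-fold higher. Unlike Aass it was also well above control in every Cbx3 array, at 6.29, 6.14 and 7.48. Another unnamed probe set, 1448022_at, came directly after Aass, at 29.0-fold. It was 3.17, 3.39 and 5.14 in control and 9.25 and 8.27 in 3XHMT, and the Cbx3 arrays, at 3.39, 3.69 and 4.77, lay within the control range. Both were noticed after their values were seen and were not tested.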
